A study of Mus musculus with 6 samples.

Results

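Genes of the nuclear pore and of the receptors that carry cargo through it were followed in mouse oocytes with and without NAT10. The members were chosen by gene name alone: rows named Nup, Kpna, Kpnb, Ipo, Xpo or Tnpo with a number, Xpot, and the nucleoporin genes Tpr, Ndc1, Pom121, Rae1, Seh1l and Aaas. This gave 51 of the 55291 gene rows of the deposited table, of which 50 had enough reads to be tested. The processed pseudogene Kpna2-ps was listed at 0 in all 6 libraries and was not tested. The control group was 3 libraries from wild-type (WT) females. The other group was 3 libraries from females carrying Gdf9-cre and a conditional Nat10 allele (Nat10 cKO). Gdf9-cre acts in oocytes, and NAT10 is the enzyme that makes N4-acetylcytidine in RNA. All oocytes were fully grown and came from mature mice 32 to 48 h or, in another place of the labels, 36 to 48 h after PMSG, a gonadotropin that stimulates follicles. The libraries are called WT1 to WT3 and cKO1 to cKO3 by the numbers in their titles. Each was a pool of 10 oocytes, and the labels do not say whether the pools of a group came from separate animals, so the spread between libraries may be technical. The age of the mice is not given in the labels, and neither are the floxed exons or the genotype of the WT females at the cre locus.

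The nuclear pore complex is a ring-shaped channel in the nuclear envelope through which mRNA leaves and most proteins enter the nucleus. Its scaffold is built from the Y complex and the inner ring, membrane nucleoporins anchor it, and nucleoporins rich in phenylalanine-glycine repeats fill the channel. Importins bind cargo in the cytoplasm and exportins bind cargo in the nucleus, and the GTPase Ran sets the direction. Importin alpha reads the classical nuclear localization signal and links the cargo to importin beta, Kpnb1. In the fully grown oocyte the large nucleus, the germinal vesicle, is intact until meiosis resumes, and Kpna7 is an importin alpha gene known for its expression in oocytes and early embryos.

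Depth was 33.5 M to 74.1 M recovered reads per library, with 23044 to 26440 genes detected. The members together took 0.771%, 0.738% and 0.755% of reads in WT and 0.789%, 0.812% and 0.778% in Nat10 cKO. The targeted gene Nat10 had 42.1, 50.1 and 39.4 CPM (read counts scaled to a common library size with TMM, a normalization to the bulk of genes) in WT and 5.72, 5.97 and 6.32 CPM in Nat10 cKO libraries. All 10 oocyte markers were present and summed to 24240 to 24950 CPM in WT and 28190 to 33120 CPM in Nat10 cKO. The 10 granulosa and cumulus markers summed to 383 to 437 and 355 to 403 CPM, mostly Serpine2, with Amh at 0 in the 3 WT libraries. The 7 markers of theca, stroma and endothelium summed to 44.2 to 46.5 and 57.3 to 64.3 CPM, mostly Pecam1, with 1 of the 7 at 0 in every library. The 6 blood and immune markers summed to 43.9 to 49.98 and 34.8 to 35.4 CPM, mostly C1qb. Every sum except the granulosa sum thus differed between the groups without overlap, but the genes within a list differed in direction. Of the oocyte markers 7 had a positive log2 change and 3 a negative one. Of the 4 tested markers of theca, stroma and endothelium, 1 was positive and 3 were negative. The part of other cell types in the results below was not tested. Read shares within a pool cannot tell fewer oocytes from less RNA per oocyte.

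Relative to the bulk of oocyte mRNA, Nat10 cKO oocytes held more mRNA of the exportin gene Xpot and the importin genes Kpna1 and Kpna4. Of 27 nucleoporin genes 19 did not pass, beside 11931 of all 18353 tested genes. The importin gene Tnpo1 was lower, a call that was lost on the deposited values, which were not divided by library size (adjusted p = 0.619). Of the 50 tested members, 16 rose and 4 fell under TMM scaling (limma, adjusted p under 0.05), against 5 and 0 on the deposited values and 4 and 3 when the deposited factors were applied to CPM. The background was high: 17.4% of all 18353 tested genes passed as higher and 17.6% as lower, beside 32% and 8% of the members. All 3 Nat10 cKO libraries lay above all 3 WT libraries for 19 members and below them for 5, beside 24.1% and 24.2% of all tested genes. The median log2 change, on the log2(CPM + 1) scale that understates changes of scarce genes, was 0.13 over the members and 0.00096 over all tested genes. Among the 27 nucleoporin genes 6 rose and 2 fell, and among the 23 transport receptor genes 10 rose and 2 fell; the difference between these classes was not tested. Mean CPM moved at least 2-fold for 4 members that passed: Xpot, Nup62cl, Kpna1 and Kpna4. Nup62cl passed the filter on low counts through its Nat10 cKO libraries, and the log2 change of Kpna4 ranged from 0.72 without WT1 to 1.47 without WT2. The 30 members that did not pass had log2 changes between -0.14 and 0.28.

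**Figure D1:**
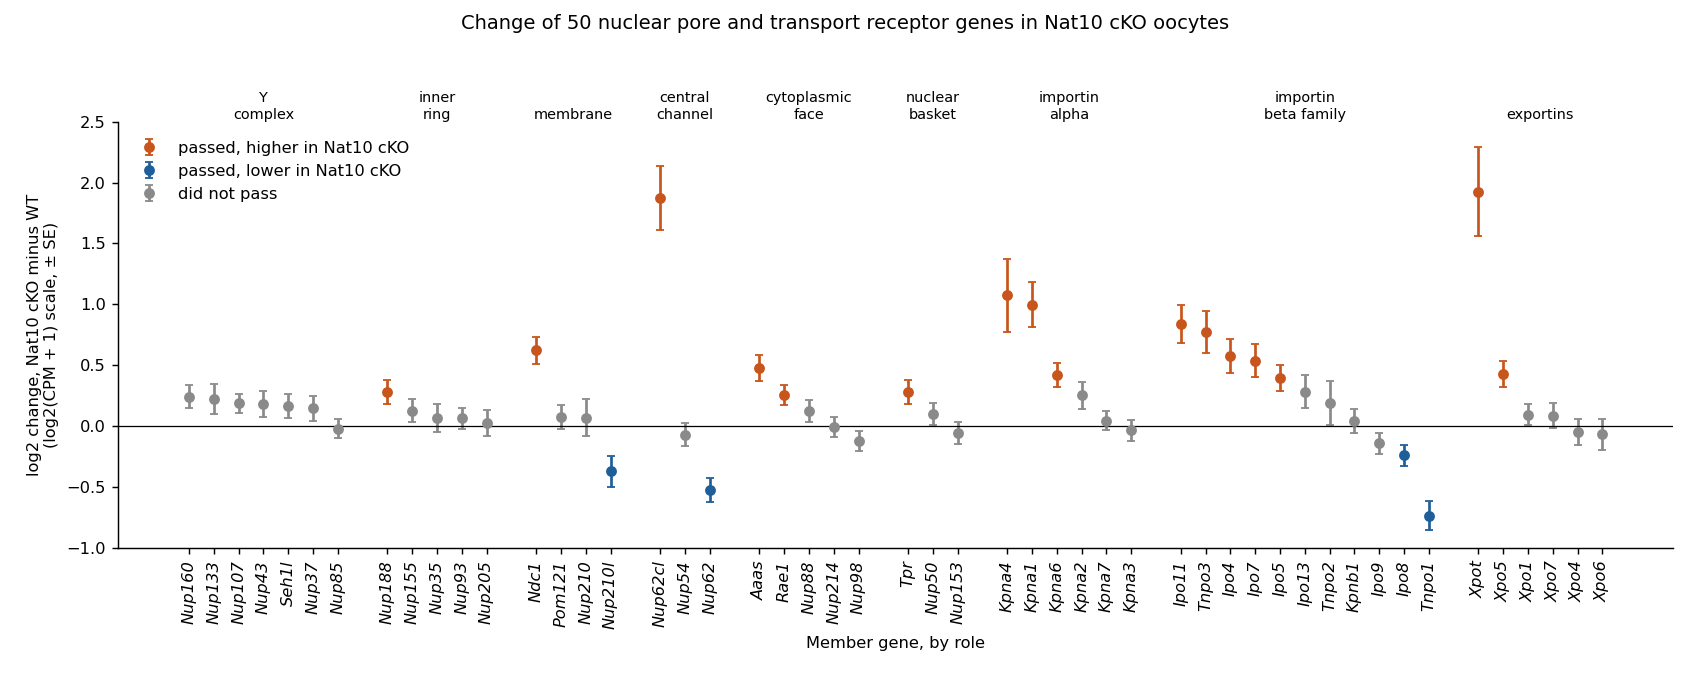
The vertical axis gives the log2 change (Nat10 cKO minus WT, ± SE) of the 50 tested members under TMM scaling, and the horizontal axis orders them by role; colour shows the test result. The 16 rises are spread over 8 of the 9 roles, with Xpot at 1.93 and Nup62cl at 1.87, and Tnpo1 is the lowest at -0.74; on the deposited values 5 of these rises and none of the 4 falls passed.

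Promoter sequences were examined because members of several roles passed. Whether their changes are linked was not tested. RefSeq start sites on GRCm38.p6, an update of the same assembly as mm10, gave 47 windows of 250 bases upstream for 40 of the members. Each window was searched on both strands for CACGTG (E-box), CCGGAAGT (a binding motif of ETS factors), CCAAT (the NF-Y box), TAATTG (a motif of the oocyte factor NOBOX) and GCGCATGC (part of the NRF1 motif). Shown are Kpna7 as the oocyte importin, the 3 members that rose with an E-box, and the channel gene Nup62 beside its paralog Nup62cl; capitals mark matches, read 5′ to 3′ along the gene's strand.
Kpna7, chr5:145009637-145009886, minus strand: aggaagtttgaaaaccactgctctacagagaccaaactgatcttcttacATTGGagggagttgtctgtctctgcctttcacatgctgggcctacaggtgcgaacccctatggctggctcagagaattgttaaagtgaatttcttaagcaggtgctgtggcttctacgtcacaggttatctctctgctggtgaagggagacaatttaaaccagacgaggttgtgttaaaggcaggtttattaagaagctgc
Xpot, chr10:121626333-121626582, minus strand: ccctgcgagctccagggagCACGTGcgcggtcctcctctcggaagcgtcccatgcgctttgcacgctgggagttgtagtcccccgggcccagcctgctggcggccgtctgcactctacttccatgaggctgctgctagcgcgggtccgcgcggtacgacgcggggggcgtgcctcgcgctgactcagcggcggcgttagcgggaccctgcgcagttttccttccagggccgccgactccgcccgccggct
Ipo7, chr7:110018065-110018314, plus strand: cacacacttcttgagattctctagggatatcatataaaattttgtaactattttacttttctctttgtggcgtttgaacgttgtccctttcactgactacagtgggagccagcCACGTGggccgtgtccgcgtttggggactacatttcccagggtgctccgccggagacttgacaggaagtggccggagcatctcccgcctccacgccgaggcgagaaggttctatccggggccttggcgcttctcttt
Nup188, chr2:30286166-30286415, plus strand: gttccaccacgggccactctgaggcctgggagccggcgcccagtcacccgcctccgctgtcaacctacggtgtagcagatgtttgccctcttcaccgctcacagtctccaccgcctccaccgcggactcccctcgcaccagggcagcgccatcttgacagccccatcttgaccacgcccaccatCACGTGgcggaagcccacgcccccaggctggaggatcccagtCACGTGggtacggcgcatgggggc
Nup62, chr7:44815838-44816087, plus strand: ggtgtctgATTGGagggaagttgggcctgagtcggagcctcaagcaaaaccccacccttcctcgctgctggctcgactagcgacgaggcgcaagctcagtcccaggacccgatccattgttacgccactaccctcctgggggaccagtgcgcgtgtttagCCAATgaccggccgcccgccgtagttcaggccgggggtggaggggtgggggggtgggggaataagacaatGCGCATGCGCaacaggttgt
Nup62cl, chrX:140062569-140062818, minus strand: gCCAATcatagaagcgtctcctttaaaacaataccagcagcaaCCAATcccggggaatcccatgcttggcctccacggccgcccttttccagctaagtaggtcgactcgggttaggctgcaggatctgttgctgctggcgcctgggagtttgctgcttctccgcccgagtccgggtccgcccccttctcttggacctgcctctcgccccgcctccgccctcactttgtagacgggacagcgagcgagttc

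The E-box was found in 6 of the 47 member windows (12.8%), beside 6.02% of all 32851 RefSeq windows. Its genes were Xpot, Ipo7 and Nup188, which rose, and Nup54, Nup93 and Tnpo2, which did not pass. The ETS motif was in 5 windows (10.6%, beside 2.88%), those of Aaas, Ipo4 and Tnpo3, which rose, and of Nup155 and Nup54. CCAAT was in 22 windows (46.8%, beside 33.8%), among them those of Kpna7, Kpna2, Kpnb1 and Xpo1, and the NRF1 part-motif in 4 (8.51%, beside 2.26%), those of Nup62, which fell, Xpo5, which rose, and Nup107 and Nup50. TAATTG was in 0 member windows, beside 7.17% of all windows, which says only that these letters are not in these bases. Member windows were richer in G and C than all windows, with medians of 63.2% and 52.4%. The part of base composition in these shares was not tested, and a match is not evidence of binding. Motif matches thus lay in windows of members that rose, of members that fell and of members that did not pass.

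The Y complex is the outer scaffold, which also binds kinetochores. Of its genes that the name rule matched, 0 of 7 passed in limma or in edgeR. In limma 17.4% of all tested genes passed as higher and 17.6% as lower. At an unadjusted p under 0.05 in limma, 2 were higher and 0 lower, beside 4115 and 4126 of all 18353 tested genes. Sec13, a further subunit outside the name rule, rose by 0.33 on the log2 scale under TMM scaling (adjusted p = 0.00776). The log2 changes of the 7 lay between -0.02 and 0.24. Nup160, one of its largest subunits, had 119, 101 and 114 CPM in WT and 137, 136 and 121 CPM in Nat10 cKO libraries (log2 change 0.24, adjusted p = 0.0652). Nup107 had 211, 197 and 197 CPM in WT and 231, 225 and 232 CPM in Nat10 cKO. Neither gene overlapped between the groups, and neither passed. All 3 Nat10 cKO libraries lay above all 3 WT libraries for 24.1% of all tested genes. Per length, Nup85 was the most abundant of these 7, at 69.2 ± 3.13 RPKM (CPM divided by the exon length in kilobases) in WT and 68.2 ± 1.93 RPKM in Nat10 cKO (SD, n = 3 per group).

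Of the 5 inner ring genes, which shape the channel wall, only Nup188 passed, as higher, beside 17.4% of all tested genes. Its level was 87.4, 103 and 90.4 CPM in WT and 108, 125 and 108 CPM in Nat10 cKO libraries, which did not overlap. Nup188 rose by 0.28 on the log2 scale (SE 0.0991, adjusted p = 0.0438). That call was lost without WT1 (adjusted p = 0.147), WT3 (0.140), cKO1 (0.0749) or cKO2 (0.159). Exons of Nup188 overlap those of other annotated genes over 12.4% of their length, and whether reads were counted by strand is not given. Nup35, a membrane-binding subunit and the most abundant inner ring gene, had 117 ± 19.97 RPKM in WT and 121 ± 10.1 RPKM in Nat10 cKO, and Nup93, Nup155 and Nup205 had log2 changes of 0.06, 0.13 and 0.02.

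Of the 4 membrane nucleoporins, 1 rose and 1 fell, beside 17.4% and 17.6% of all tested genes. Ndc1, a transmembrane protein needed to insert new pores into the envelope, had 110, 102 and 114 CPM in WT and 171, 195 and 141 CPM in Nat10 cKO libraries. All 3 Nat10 cKO libraries lay above WT, and Ndc1 rose by 0.62 on the log2 scale (SE 0.113, adjusted p = 0.00119), a 1.55-fold higher mean. The limma call was lost on the deposited values (adjusted p = 0.117) and with the deposited factors on CPM (0.172). Pom121 and Nup210, which also encode membrane proteins of the pore, had log2 changes of 0.07 and 0.07 (adjusted p = 0.614 and 0.767). Nup210l, a relative of Nup210 known from the testis, had the lowest mean level per length of the members, with 0.989, 1.09 and 1.10 CPM in WT and 0.709, 0.462 and 0.609 CPM in Nat10 cKO. Nup210l fell by 0.37 (adjusted p = 0.0379), but edgeR gave an adjusted p = 0.0653, and the limma call was lost whichever library was left out (adjusted p from 0.0593 to 0.163), and in 12 of 18 alternatives in all.

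The central channel gene Nup62 fell, and its paralog Nup62cl rose. Nup62cl passed the filter on low counts through its Nat10 cKO libraries, so its rise was to be expected. The contrast in direction therefore cannot be read as a result. Nup62 encodes the repeat-rich protein at the heart of the channel, which works in a complex with the product of Nup54. Its level was 124, 136 and 117 CPM in WT and 81.7, 81.4 and 98.1 CPM in Nat10 cKO libraries. All Nat10 cKO libraries were below WT, and Nup62 fell by 0.53 on the log2 scale (SE 0.102, adjusted p = 0.0017), to 0.693 of the WT mean. Nup54 had 188, 156 and 171 CPM in WT and 165, 173 and 152 CPM in Nat10 cKO, which overlapped (log2 change -0.07). The ratio of Nup62 to Nup54 reads was 0.738 ± 0.116 in WT and 0.538 ± 0.0956 in Nat10 cKO. Exons of Nup62 overlap those of Atf5 on the opposite strand and of Il4i1 on the same strand over 3.4% of their length. The remaining gene of that complex was listed under its older name Nupl1, at 0 in every library; 55.4% of its exon length overlaps other annotated genes, and no value is given.

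Nup62cl, a little-studied X-linked gene named for its similarity to Nup62, was nearly absent from WT oocytes. It had 2, 6 and 12 reads in the WT libraries and 298, 240 and 102 reads in the Nat10 cKO libraries. For the lowest library, 2 reads, the counting interval is 0.242 to 7.22 reads (exact Poisson, 95%, counting error only). As TMM-scaled levels these were 0.062, 0.172 and 0.187 CPM in WT and 3.98, 5.04 and 1.41 CPM in Nat10 cKO. cKO3 was the lowest of its group but still far above every WT library. Nup62cl rose by 1.87 on the log2(CPM + 1) scale (SE 0.262, adjusted p = 0.000259), and by 4.52 in edgeR, which adds no fixed pseudocount. It passed the filter on low counts through its Nat10 cKO libraries, so a difference was to be expected of any gene kept in that way. How reads that match both Nup62 and Nup62cl were counted is not given.

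The 5 tested members of the cytoplasmic face, where mRNA leaves the pore, included 2 rises, beside 17.4% of all tested genes. Aaas, which encodes the WD-repeat protein ALADIN, had 134, 125 and 124 CPM in WT and 176, 205 and 156 CPM in Nat10 cKO libraries. It rose by 0.48 on the log2 scale (SE 0.103, adjusted p = 0.0035). Rae1, an mRNA export factor that binds Nup98, had 136, 149 and 138 CPM in WT and 161, 167 and 177 CPM in Nat10 cKO. Rae1 rose by 0.25 (adjusted p = 0.0351), a call lost without WT1 or WT3 (adjusted p = 0.111 and 0.116) or any of cKO1, cKO2 and cKO3 (0.0703, 0.0681 and 0.0779). Nup98, Nup214 and Nup88, which had 487, 264 and 315 CPM on average in WT, had log2 changes of -0.13, -0.01 and 0.12 and did not pass. Nup98, the partner of Rae1, had 504, 450 and 506 CPM in WT and 443, 431 and 462 CPM in Nat10 cKO. Nup42 was listed under its older name Nupl2, which the name rule does not match, with 6.80, 8.33 and 7.31 CPM in WT and 13.7, 18.0 and 12.1 CPM in Nat10 cKO (log2 change 0.86, adjusted p = 0.00129).

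At the nuclear basket, Tpr, which forms its filaments, had 70.3, 78.6 and 69.3 CPM in WT and 86.7, 82.03 and 96.2 CPM in Nat10 cKO libraries. Tpr rose by 0.28 on the log2 scale (SE 0.0978, adjusted p = 0.0425). Without WT1 or WT3 its adjusted p was 0.120 and 0.150, and without cKO1 or cKO3 it was 0.102 and 0.112. Nup153 and Nup50, which bind importins on the nuclear side, had log2 changes of -0.06 and 0.10. Nup50 was the most abundant basket gene, at 25.8 ± 1.92 RPKM in WT and 27.6 ± 1.42 RPKM in Nat10 cKO.

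**Figure D2:**
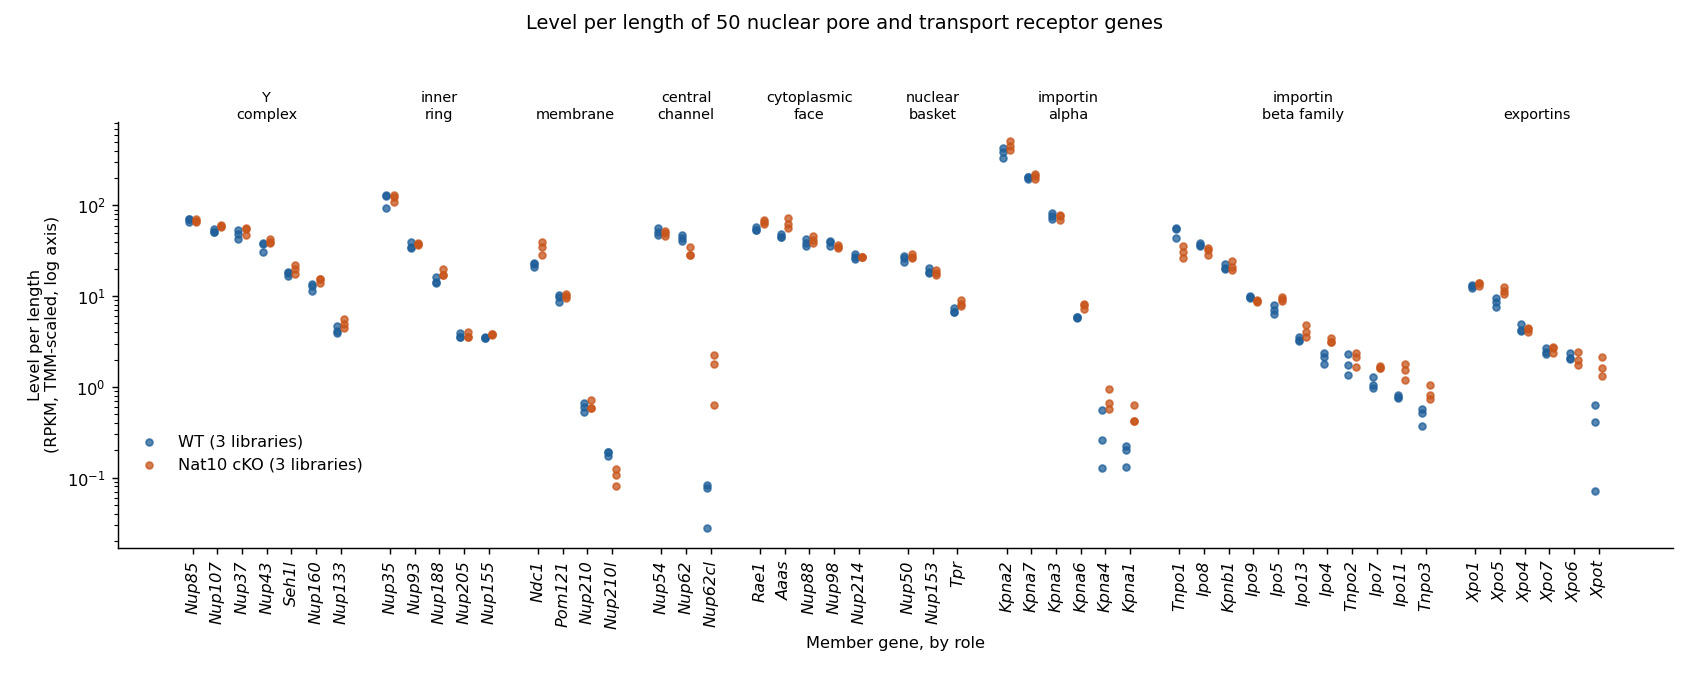
The vertical axis (log scale) gives the TMM-scaled level per length in RPKM, and the horizontal axis gives the 50 tested members by role, each with 3 WT points and 3 Nat10 cKO points. Kpna2 and Kpna7 stand highest, with library means of 420 and 205 RPKM, while Nup210l, Kpna1 and Kpna4 stand lowest by library mean, at 0.145, 0.338 and 0.521 RPKM.

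Importin alpha mRNA came almost wholly from 3 genes. Kpna2 made up 57.2% ± 2.31 of the summed RPKM of the 6 tested Kpna genes in WT and 60.9% ± 1.52 in Nat10 cKO (SD, n = 3). Kpna7 made up 30.4% ± 1.98 and 27.9% ± 1.01, and Kpna3 made up 11.5% ± 0.228 and 10.0% ± 0.532. The sum was 722, 605 and 680 RPKM in the WT libraries and 744, 819 and 680 RPKM in the Nat10 cKO libraries, which overlapped. Kpna2 ranked first and Kpna7 second in level per length among all 50 members.

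The oocyte importin Kpna7 did not pass. It had 643, 614 and 646 CPM in WT and 656, 690 and 615 CPM in Nat10 cKO libraries, which overlapped (log2 change 0.04, SE 0.080, adjusted p = 0.712). Kpna2 had 1232, 953 and 1122 CPM in WT and 1290, 1473 and 1166 CPM in Nat10 cKO, with a log2 change of 0.25 (adjusted p = 0.0881). Kpna2 passed with library sizes only (adjusted p = 0.0371) and without WT1 (0.0434) or cKO3 (0.0258). Kpna3 had a log2 change of -0.04. Reads shared among the near-identical parts of Kpna genes, or between Kpna2 and Kpna2-ps, may have been assigned in ways that are not given.

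Of the 6 importin alpha genes the 3 least abundant all rose, beside 17.4% of all tested genes. Kpna1 had 1.11, 1.72 and 1.90 CPM in WT and 3.58, 5.30 and 3.58 CPM in Nat10 cKO libraries, without overlap. It rose by 1.00 on the log2 scale (SE 0.184, adjusted p = 0.00128). Kpna4 had 1.14, 5.03 and 2.32 CPM in WT and 5.94, 8.37 and 5.15 CPM in Nat10 cKO, so that WT2 came close to the lowest Nat10 cKO library. Kpna4 rose by 1.07 (SE 0.301, adjusted p = 0.0156), which was lost without WT3 (adjusted p = 0.0542) or cKO2 (0.0778) and in DESeq2 (0.121). Kpna6, an importin alpha of higher level, had 38.6, 39.4 and 39.2 CPM in WT and 49.0, 55.0 and 54.0 CPM in Nat10 cKO, and rose by 0.42 (adjusted p = 0.0052). Together these 3 genes made up a small part of the importin alpha sum: Kpna6 had 0.874% in WT and 1.05% in Nat10 cKO, and Kpna1 and Kpna4 each stayed under 0.1% on average.

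Among the 11 importers of the importin beta family, which bind cargo directly or through an adaptor, 5 rose and 2 fell. Of all tested genes 17.4% passed as higher and 17.6% as lower. Tnpo1, or transportin, which imports RNA-binding proteins, fell most. It had 638, 495 and 620 CPM in WT and 347, 299 and 405 CPM in Nat10 cKO libraries. No Nat10 cKO library reached the WT range, and Tnpo1 fell by 0.74 on the log2 scale (SE 0.120, adjusted p = 0.000586). Its share of the family's summed RPKM was 38.1% ± 3.79 in WT and 26.9% ± 2.11 in Nat10 cKO. In edgeR its log2 change was -0.74 (adjusted p = 0.00102). The paralog Tnpo2 had 8.44, 14.3 and 11.1 CPM in WT and 13.3, 10.3 and 14.98 CPM in Nat10 cKO, which overlapped (log2 change 0.19). Tnpo3, which imports SR splicing factors, had 4.85, 7.38 and 6.68 CPM in WT and 10.8, 13.7 and 9.73 CPM in Nat10 cKO, and rose by 0.77 (SE 0.173, adjusted p = 0.00434).

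Ipo7 and Ipo8 are close paralogs, and their changes had opposite signs except on the deposited values, where Ipo8 was at 0.12. Ipo8 had 584, 567 and 606 CPM in WT and 504, 452 and 532 CPM in Nat10 cKO. The groups did not overlap. It fell by 0.24 on the log2 scale (SE 0.0854, adjusted p = 0.0420). The call was lost in DESeq2 (adjusted p = 0.0511), with library sizes only (0.0588), with the replicate block (0.0587) and without WT1 (0.0919), WT3 (0.157), cKO1 (0.122) or cKO2 (0.193). Ipo7 had 10.9, 14.5 and 11.6 CPM in WT and 19, 17.8 and 17.8 CPM in Nat10 cKO, and rose by 0.54 (SE 0.135, adjusted p = 0.0079). Per library, the ratio of Ipo8 to Ipo7 reads was 53.5, 39.1 and 52.4 in WT and 26.5, 25.4 and 29.8 in Nat10 cKO. This ratio within a library needs no scaling factor, and its groups did not overlap.

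The other importers that rose were Ipo11, Ipo4 and Ipo5. Ipo11, which imports ubiquitin-conjugating enzymes, had 6.40, 6.03 and 5.88 CPM in WT and 12.02, 14.04 and 9.42 CPM in Nat10 cKO libraries, and rose by 0.84 (SE 0.157, adjusted p = 0.0014). Ipo4, an importer of histones, had 8.38, 10.0 and 10.98 CPM in WT and 14.5, 15.96 and 14.5 CPM in Nat10 cKO (log2 change 0.57, adjusted p = 0.00614). Of its exon length, 55.3% overlaps Gm49378 on the same strand, so its value is uncertain. Ipo5, which imports histones and ribosomal proteins, had 37.8, 47.7 and 42.1 CPM in WT and 56.0, 58.4 and 53.7 CPM in Nat10 cKO. It rose by 0.39 (adjusted p = 0.0121), with an adjusted p of 0.0603 without WT1 and 0.0502 without WT3. Kpnb1, importin beta itself, had 134, 148 and 132 CPM in WT and 139, 129 and 160 CPM in Nat10 cKO, with a log2 change of 0.04 (adjusted p = 0.768) that turned to -0.04 without cKO3. Ipo9 and Ipo13 had log2 changes of -0.14 and 0.28 and did not pass.

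Of the 6 exportins matched by the name rule, 2 rose, beside 17.4% of all tested genes. Both are known as carriers of small RNAs. Xpot, which carries mature transfer RNA out of the nucleus, had 0.433, 3.79 and 2.503 CPM in WT and 9.68, 12.8 and 7.93 CPM in Nat10 cKO libraries. WT1 was the lowest, and the lowest Nat10 cKO library was still above the highest WT library. Xpot rose by 1.93 on the log2 scale (SE 0.368, adjusted p = 0.00291), with a mean 4.52-fold higher. Xpo5, which carries precursor microRNA, had 51.8, 65.6 and 59.0 CPM in WT and 77.4, 87.2 and 73.2 CPM in Nat10 cKO, and rose by 0.43 (SE 0.110, adjusted p = 0.00895). Xpo1, the general export receptor for proteins with a leucine-rich signal, was the most abundant of these 6 per length. Its level was 88.6, 94.6 and 91.9 CPM in WT and 100, 93.6 and 99.3 CPM in Nat10 cKO (log2 change 0.09, adjusted p = 0.442). Xpo4, Xpo6 and Xpo7 had log2 changes of -0.05, -0.07 and 0.08. The summed RPKM of the exportins was 28.7, 33.0 and 30.5 in WT and 35.8, 36.0 and 35.5 in Nat10 cKO, without overlap. Its mean went from 30.7 in WT to 35.8 in Nat10 cKO. Within it, mean RPKM went from 8.57 to 11.6 for Xpo5 and from 0.372 to 1.68 for Xpot, so much of the difference lay in these genes.

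**Figure D3:**
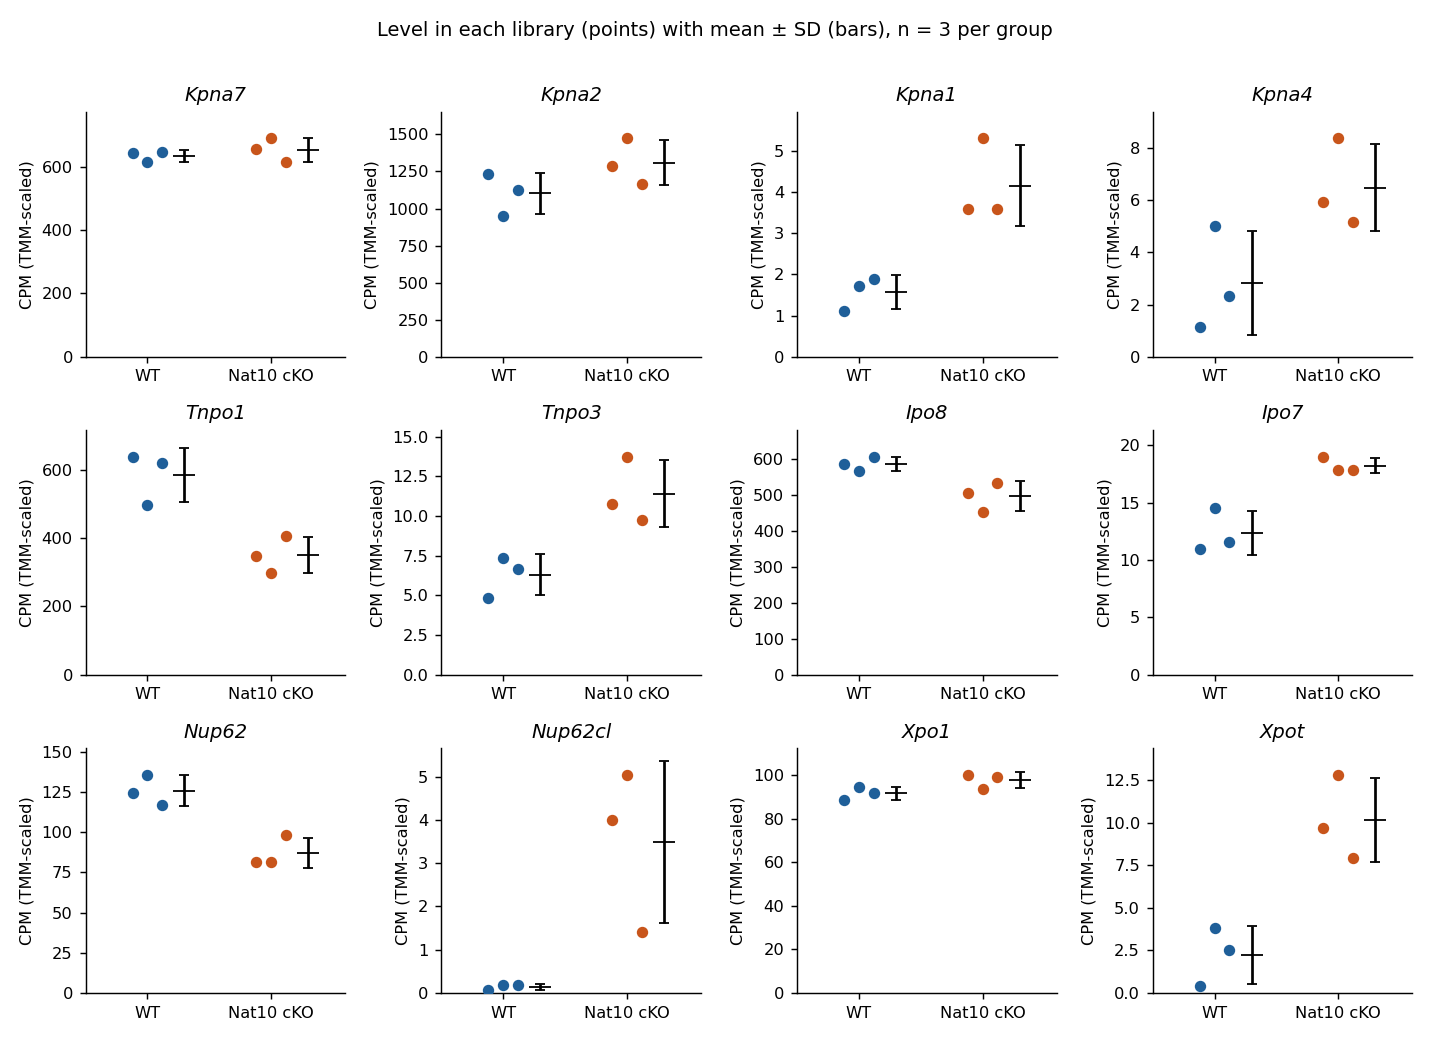
Each panel gives the TMM-scaled level in CPM (vertical axis from 0) of a named member in the 3 WT and 3 Nat10 cKO libraries, as points with the mean ± SD beside them. Groups overlap for Kpna7, Kpna2 and Xpo1, while for Tnpo1, Nup62 and Ipo8 every Nat10 cKO point lies below WT and for the other 6 every one lies above.

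Members of intermediate level held many of the rises. This division was added after the values were seen. Tested genes were split by mean level into 3 bins of equal size, with bounds at 1.94 and 25.2 CPM. In the middle bin, 7 of 10 members rose and the other 3 did not pass, beside 22.6% of all genes of that bin higher and 20.5% lower. The 7 were Kpna4, Tnpo3, Ipo7, Xpot, Ipo11, Ipo4 and Kpna1, all transport receptors. The other 3 were Ipo13, Tnpo2 and Nup210, the only nucleoporin gene of that bin, so its members were nearly all transport receptors. In the highest bin, 8 of 38 members rose and 3 fell, beside 19% and 21.4% of all genes there. The lowest bin held Nup62cl, which rose, and Nup210l, which fell, beside 10.5% and 11% of its genes. The share of rises in the highest bin was thus near the background, and the other bins held few members.

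Other genes of nuclear transport, listed by function, were read from the same fit. Of 8 tested genes of the Ran cycle, 4 rose (in edgeR 3 rose and 1, Rangap1, fell), beside 17.4% of all tested genes. On the deposited values 1 rose, and with the deposited factors on CPM 1 rose and 1 fell. Cse1l, the exportin that returns importin alpha to the cytoplasm, had 56.5, 52.0 and 57.9 CPM in WT and 110, 130 and 75.7 CPM in Nat10 cKO libraries. It rose by 0.88 on the log2 scale (SE 0.154, adjusted p = 0.000918). Ran itself had 78.8, 121 and 106 CPM in WT and 133, 138 and 119 CPM in Nat10 cKO, which overlapped, and its rise of 0.36 (adjusted p = 0.0486) was lost without WT1 or WT3 (adjusted p = 0.220 and 0.0883) or cKO1 or cKO2 (0.118 and 0.127), and in edgeR (0.0641). Ranbp2, the large nucleoporin of the cytoplasmic filaments, rose by 0.31 (adjusted p = 0.0208), with adjusted p = 0.0826 and 0.0615 without WT1 and WT3 and 0.077 and 0.0549 without cKO1 and cKO2. Rcc1, the chromatin-bound exchange factor of Ran, rose by 0.32 (adjusted p = 0.0438), which missed the threshold without WT1 or WT3 (0.0538 and 0.179) or cKO1, cKO2 or cKO3 (0.0612, 0.125 and 0.0783). Without WT1, WT3, cKO1 or cKO2, 1 gene of the Ran cycle rose, and 1 fell without WT1. Cse1l also rose on the deposited values and with their factors on CPM (adjusted p = 0.031 and 0.0224).

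Of 5 pore and carrier genes outside the name rule, 1 rose: Sec13, a Y complex subunit that also coats secretory vesicles (log2 change 0.33, adjusted p = 0.00776), beside 17.4% of all tested genes. Sec13 did not pass on the deposited values or with the factors on CPM (adjusted p = 0.32 and 0.74). Ranbp6 and Ranbp17 had log2 changes of 0.33 and -0.19. Of 21 tested mRNA export factors, 5 rose and 3 fell, beside 17.4% and 17.6% of all tested genes. On the deposited values 1 passed, as higher, and with the factors on CPM 1 rose and 1 fell. Nxt2, a partner of the export receptor Nxf1, had 9.21, 6.41 and 9.06 CPM in WT and 20.2, 23.8 and 15.6 CPM in Nat10 cKO libraries and rose by 1.17 (adjusted p = 0.00033). The TREX complex genes Thoc3 and Ddx39b rose by 0.45 and 0.39, calls lost on the deposited values (adjusted p = 0.233 and 0.278) and with the factors on CPM (0.525 and 0.637). The falls among export factors were 0 without WT3 or cKO2 and 1 without WT1 or cKO1, and the rises were 3 without WT3 or cKO1 or cKO2. Of 13 lamina and envelope genes, 2 rose, beside 17.4% of all tested genes. Lemd2 went from 1.88 to 6.61 CPM on average and Lemd3 from 0.322 to 1.58 CPM (log2 changes 1.45 and 0.97). Tmpo had a log2 change of -0.23, and passed without cKO3 (-0.30, adjusted p = 0.0314).

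Many of these calls depended on the scaling. The deposited counts carry ERCC, the name of the spike-in, in their label. The sources used here do not state how the factors in the deposited values were made or whether they come from that spike-in. What these scales measure is thus unknown. The fit on the deposited values used a common divisor for all libraries, so differences between their totals stayed in. These totals were 33.5, 47.1 and 61.9 M in WT and 68.2, 43.0 and 66.2 M in Nat10 cKO. The part of these totals in the calls was not tested. The median log2 change of all tested genes was 0.242 on the deposited values and -0.147 with the deposited factors on CPM, beside 0.492 and -0.0804 for the members. Relative to those shifts the members' median was higher on each scale. On the deposited values 5 members rose and 0 fell in limma (10 and 0 at an unadjusted p under 0.05, and 16 and 3 in edgeR on the recovered reads), beside 6.58% and 1.39% of all tested genes. With the deposited factors on CPM 4 rose and 3 fell, beside 5.58% and 16.5%. Xpot, Nup62cl, Kpna1 and Kpna4 rose on every scale, with log2 changes of 2.10, 1.97, 1.20 and 1.30 on the deposited values and 1.72, 1.76, 0.83 and 0.87 with the factors on CPM. For Nup62cl, kept by the filter through its Nat10 cKO libraries, a rise was to be expected. Tnpo1 and Nup62 were at -0.38 and -0.17 on the deposited values (adjusted p = 0.619 and 0.844) and fell by 0.96 and 0.74 with the factors on CPM. Ipo11 rose on the deposited values (adjusted p = 0.0395) and was at 0.64 with the factors on CPM (adjusted p = 0.0632). Nup210l fell with the factors on CPM and was at -0.21 on the deposited values. Of the 20 members that passed under TMM scaling, 5 also passed on the deposited values and 7 with the factors on CPM. Tpr, Nup188, Rae1, Ndc1, Kpna6, Tnpo3, Ipo8, Ipo7, Ipo4, Ipo5, Aaas and Xpo5 passed on neither of them.

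**Figure D4:**
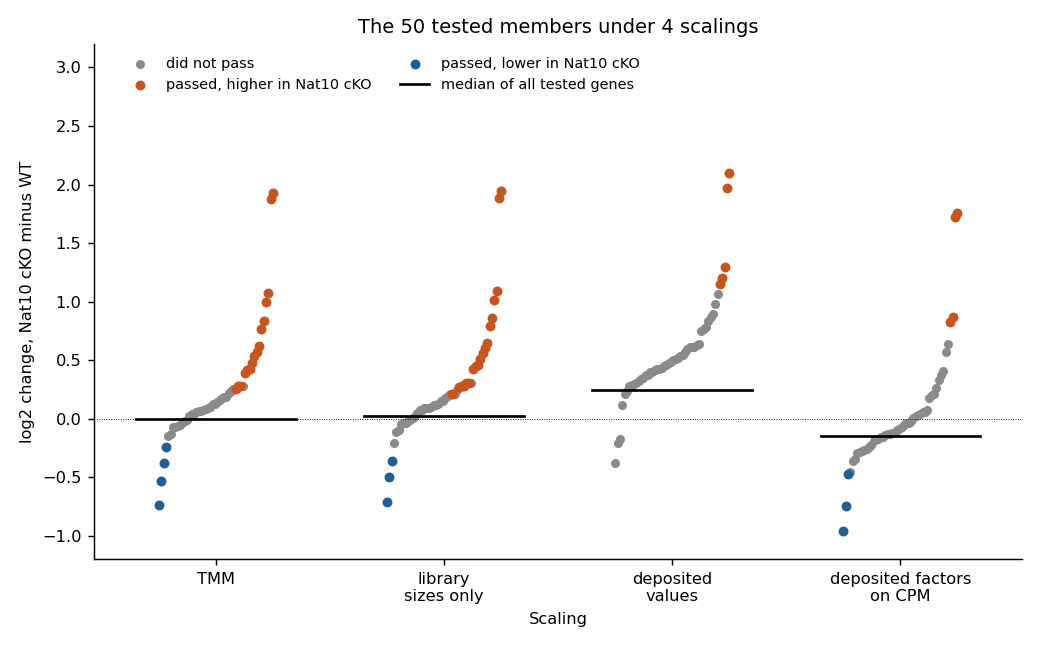
The vertical axis gives the log2 change (Nat10 cKO minus WT) of the 50 tested members, ordered within each of 4 scalings on the horizontal axis; black lines mark the median of all tested genes. That median lies at 0.242 for the deposited values and -0.147 with the deposited factors on CPM, and the 4 highest members passed under each of the 4 scalings. Nup62cl, among these 4, was kept by the filter on low counts through its Nat10 cKO libraries.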

How the data were processed

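Polyadenylated RNA of 6 pools of 10 oocytes was sequenced after Smart-seq2, with 0.2 µl of ERCC spike-in diluted 1000-fold per pool, per the labels. The submitters' processing notes name the build mm10, the trimmer Trim Galore (0.6.7), the aligner STAR (2.7.10a) and the counter featureCounts. Their settings, annotation and use of strand were not given in the sources used here. In the deposited table, WT replicate 1 holds whole read counts, and the other 5 columns hold a scaled signal, counts multiplied by 1 factor per library (0.908 to 1.38) of unstated origin. Dividing each by its smallest value above 0 gave whole reads, within 0.001, for 100% of values. Spike-in values were not analysed here.

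Genes were kept by filterByExpr (minimum count 10). The main test was limma (trend, robust) on log2(CPM + 1) with TMM factors, two-sided, with Benjamini-Hochberg adjustment over 18353 genes and a threshold of 0.05, checked on simulated data. The edgeR quasi-likelihood test, DESeq2, other scalings, filters and pseudocounts, a replicate block and leaving out each library were alternatives. Each library is 1 of 3 per group, and counting error is widest for the scarcest members. RPKM used exon lengths from GENCODE M21 (GRCm38), which matched all 51 members; 19 have exons that overlap a different gene, and for 15 that gene lies on the other strand. Promoters came from RefSeq on GRCm38.p6. Members, lists and tests were chosen with earlier results of these data known. Named were all members that passed, Kpna7, Kpna2, Kpnb1, Xpo1, Ran, Ranbp2, Cse1l, the most abundant member per length of each role and the 3 genes of smallest p of each pathway list; other genes given with values were chosen after these were seen. Software was limma 3.58.1, edgeR 4.0.16 and DESeq2 1.42.0 under R 4.3.3, with pandas 2.3.3 and matplotlib 3.10.9 under Python 3.11.15.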

Additional observations from a re-analysis of the deposited data

How the results depend on the processing

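Nat10 stayed lower in every alternative run, between -2.87 and -2.15 on the log2 scale, and between -2.74 and -2.57 without any 1 library. The 16 rises of members became 5 on the deposited values and 4 with the deposited factors on CPM, and 11 to 17 without any 1 library. The 4 falls became 2 in DESeq2, 0 on the deposited values, 2 with no filter and 2 with the replicate block, and 2 to 3 without any 1 library: 2 without WT1 or WT3 or cKO1 or cKO2, where Ipo8 and Nup210l were lost. All tested genes that passed numbered 6422, against 1462 on the deposited values, 4052 with the factors on CPM and 4309 to 6682 without any 1 library. edgeR called 16 members higher and 3 lower, with 3040 and 3144 of all genes. Replicate numbers were not used as pairs in the main fit. Deviations of same-numbered libraries correlated at 0.0788, 0.0747 and -0.12 across genes, and those of differently numbered libraries at -0.231 to 0.237. These deviations were taken from group means of 3 libraries, so they cannot decide whether the libraries are paired. With the replicate block 14 members rose and 2 fell. Of the 20 member calls, 13 held without any 1 library and 3 (Xpot, Kpna1, Nup62cl) held in all 18 alternatives; Nup62cl was kept by the filter through its Nat10 cKO libraries.

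Members with a negative change went from 13 to 3 on the deposited values, and those with a positive change from 37 to 20 with the factors on CPM. Among the genes named by the rule, signs changed in Ipo8 (0.12), Nup85 (0.34), Nup54 (0.29), Tmpo (0.13) and Ranbp17 (0.15) on the deposited values, and in Kpna7 (-0.18), Kpnb1 (-0.17), Xpo1 (-0.12), Nup50 (-0.12) and Nup35 (-0.15) with the factors on CPM. Nup85, otherwise between -0.055 and -0.0026 without any 1 library, was at 0.0086 with library sizes only, 0.0089 without WT2 and 0.0075 without cKO1, Nup35 at -0.075 without WT2, and Kpnb1 at -0.042 without cKO3. The cause was not tested.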
